A study of Mus musculus with 5 samples.

Results

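The 10 genes described here, whose products fold proteins in the endoplasmic reticulum (ER), were read in macrophages sorted from the aortas of mice fed a Western diet, from a table of 55487 genes. *Fkbp2* and *Tmx2* were picked because their counts split by genotype, and the other 8 (*Hspa5*, *Hsp90b1*, *Calr*, *Canx*, *P4hb*, *Pdia3*, *Pdia6* and *Ppib*) were set beside them as well-known genes of the same pathway. The split of *Fkbp2* and *Tmx2* is therefore how they were chosen, and it is given as a description with no test.

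All mice were males on an *Apoe* knockout background (ApoeKO), which lack apolipoprotein E and form atherosclerotic plaques. The controls, Zeb1WT/ApoeKO, carried the floxed *Zeb1* allele (Zeb1 fl/fl) in its intact form, and Zeb1ΔM/ApoeKO mice carried in addition a Cre recombinase expressed from the *Lyz2* gene, which deletes *Zeb1* in myeloid cells as a class and not in macrophages alone. Mice received chow for the first 8 weeks of life and Western diet for the 10 weeks that followed. Viable cells positive for CD45 and F4/80 were sorted, by the study's methods also for the myeloid marker CD11b, the macrophages of 3 mice were pooled per genotype and condition, and cDNA was amplified with an ultra-low-input kit. The study describes libraries in triplicate, of which 2 are labelled WT and 3 are labelled KO here. These libraries are called WT 1, WT 2, KO 1, KO 2 and KO 3 below. The study states in general that its replicates are biologically independent, but the sources used here do not say how the pooled mice map to the libraries, so errors and p-values measure the spread between these libraries, part of which may be technical.

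Proteins made for secretion or for membranes enter the ER as unfolded chains. ATP-driven chaperones hold exposed stretches of the chain, lectin chaperones retain glycoproteins until they are folded, protein disulfide isomerases form and rearrange disulfide bonds, and prolyl isomerases turn the bond before proline. When unfolded protein builds up in the ER, the unfolded protein response raises the transcription of many of these genes, and macrophages use the pathway for the cytokines, enzymes and surface receptors they make.

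One DNA element of that response can be read directly from the promoters. The ER stress response element consists of CCAAT, 9 bases of any kind and CCACG, where the transcription factor NF-Y binds the former part and ATF6 or XBP1 the latter. Both strands of 300 bases around each start site (250 before and 50 after, RefSeq, GRCm38.p6) were searched. The element occurred in 5 of the 10 genes, *Hspa5*, *Hsp90b1* at 2 places, *Calr*, *Canx* and *Pdia6*, and in 39 of all 32851 promoter windows (0.119%), or 37 of 27025 genes (0.137%). The sites are shown because they are what these 5 genes share and the other 5 lack in these windows. Each is printed 5′ to 3′ on the strand where the element reads forward, with the CCAAT and CCACG parts in capitals.
Hspa5 (chr2:34772025-34772043, plus strand): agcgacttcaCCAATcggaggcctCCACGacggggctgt
Hsp90b1 (chr10:86705638-86705656, minus strand): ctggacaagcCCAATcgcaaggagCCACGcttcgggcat
Hsp90b1 (chr10:86705533-86705551, plus strand): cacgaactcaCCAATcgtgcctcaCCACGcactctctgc
Calr (chr8:84847075-84847093, plus strand): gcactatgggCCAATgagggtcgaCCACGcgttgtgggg
Canx (chr11:50325800-50325818, minus strand): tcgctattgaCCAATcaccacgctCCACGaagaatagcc
Pdia6 (chr12:17266491-17266509, plus strand): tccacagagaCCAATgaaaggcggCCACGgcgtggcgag

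The coordinates cover the element itself, without the flanking bases. Relative to the annotated start base, counted as 0, the element of *Hspa5* lies from −65 to −47 and that of *Pdia6* from −98 to −80. Those of *Canx* and *Calr* lie farther upstream, from −145 to −127 and from −162 to −144, and those of *Hsp90b1* from −212 to −194 and from −107 to −89. No such element was found in the 3 windows of *Fkbp2*, the 2 windows of *Tmx2*, or the windows of *P4hb*, *Pdia3* and *Ppib*, which says only that these letters are not in these windows. CCAAT alone, a common promoter sequence, was present in all 10 genes and in 41.1% of all genes, and CCACG alone in 8 of the 10 genes and in 35.5% of all genes, counted also where they form the element. The second ER stress response element (ERSE-II) was in 12 windows of the genome and in 0 of the 10 genes. The E-box CAGGTG, a sequence that the ZEB1 protein can bind, was in 3 of the 10 genes, *Fkbp2* (windows 2 and 3), *Ppib* and *Hsp90b1*, and in 22.6% of all genes. These matches are descriptions, not sites or causes.

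**Figure D1:**
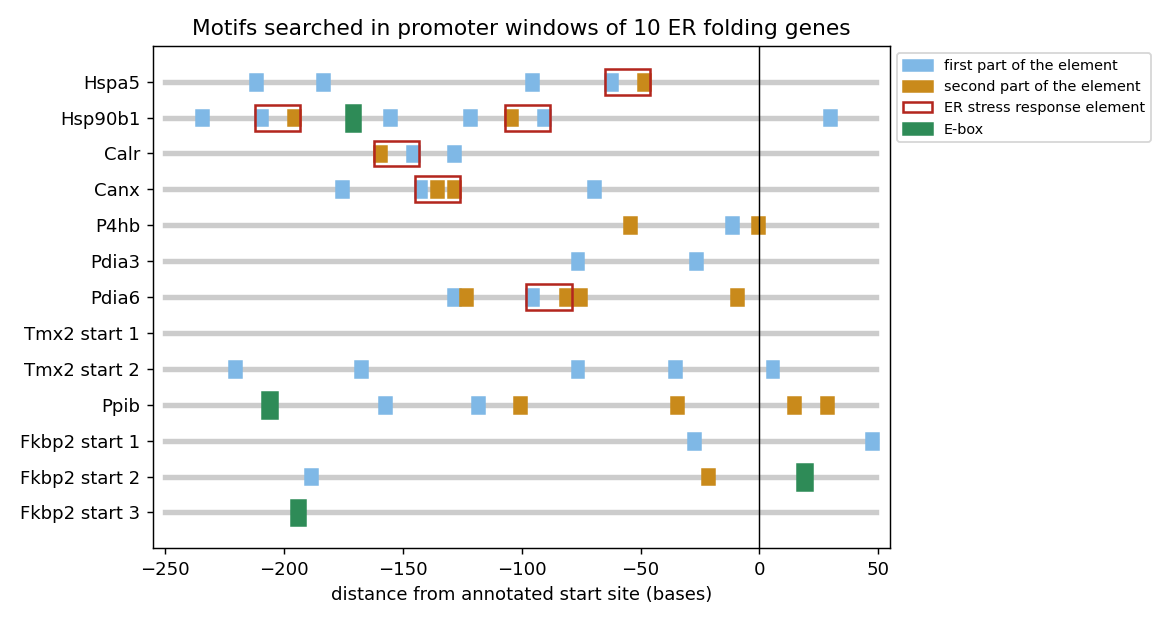
Positions of searched motifs in the 13 promoter windows of the 10 ER folding genes. The x axis is the distance in bases from the annotated start site, grey bars are the windows, blue and orange boxes are the CCAAT and CCACG parts, red frames the whole ER stress response element and green boxes the E-box. The 6 frames fall in *Hspa5*, *Hsp90b1*, *Calr*, *Canx* and *Pdia6*, and none in *Fkbp2* or *Tmx2*.

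The 5 libraries differed in depth and in how many genes they detected. Total counts lay between 20118545 and 50649912, genes with at least 1 count numbered 20919 in KO 1 and between 7395 and 10689 in the other libraries, and the TMM factors that scale the libraries lay between 0.515 (KO 1) and 1.42 (WT 1). A count of 0 allows up to 3 counts, which is 0.0592 to 0.149 CPM of the total (counts scaled to a library of 1e+06 counts) or 0.0597 to 0.248 CPM after TMM normalization, and these limits and the intervals below cover counting error only, since amplified reads are not independent molecules. *Zeb1* had 0 counts in WT 1, WT 2, KO 2 and KO 3 and 22 counts in KO 1, so it did not check the labels. *Lyz2* was abundant everywhere (161607 to 869804 counts), and *Apoe* had at most 86 counts. The 14 macrophage markers, all detected in some library, summed to 39751 and 42290 CPM in the WT libraries and to 41853, 48221 and 38897 CPM of the total in the KO libraries. These sums differed in make-up, as the marker with the most counts was *Lyz2* in WT 1 (596080). In KO 1 it was *C1qb* (398502, against 161607 for *Lyz2*). Single markers were less even, as *Cd68* (0 and 44664 counts in WT, 10, 36172 and 46735 in KO libraries) and *C1qa* (0 and 53826, then 5, 48430 and 77519) were near 0 in WT 1 and KO 1, *Itgam* was at 0 and *Cd14* at 33 counts in KO 1, and *Mertk* was at 0 in all but KO 1 (22 counts). KO 1 stood apart, with 16423 genes above the floor against at most 6931 in another library, but the fewest with at least 100 counts among the genes tested (777, against 1594 to 3829).

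Markers of other cells were not spread evenly. The 7 T cell markers, all detected, summed to 10.8 and 5300 CPM in WT 1 and WT 2 and to 1.15, 432 and 1419 CPM in KO 1, KO 2 and KO 3. They were thus low in WT 1 and KO 1. Of 7 neutrophil markers, 4 were detected, with sums of 3150 and 870 CPM against 1361, 1243 and 138 CPM, while *Ly6g*, *Mpo* and *Elane* were at or under the floor. Plasma cells, which are rich in ER, have *Mzb1* and *Tnfrsf17* among their defining markers, and both were at or under the floor in every library. *Sdc1*, another marker of the list, had 3724 counts in WT 2 and at most 22 elsewhere, and *Jchain* and *Derl3* had at most 9. Of the 6 plasma cell markers, 4 were detected, and their sums of 0.398 and 1006 CPM (WT) and 1.56, 789 and 578 CPM (KO) fell to 0.398 and 108 CPM and to 0.903, 0 and 0.316 CPM without *Xbp1*, which macrophages also express. Smooth muscle (1 of 5 markers detected, at most 0.451 CPM), B cell (3 of 5, at most 3.69 CPM) and endothelial markers (3 of 5, at most 72.3 CPM) were low. Fibroblast markers (4 of 6) reached 531 CPM in KO 2 and at most 2.23 CPM elsewhere. In KO 2 nearly all of this sum was *Dcn* (19005 counts), while *Col1a2* had 5 counts and the other fibroblast markers 0. The part of these cells in the results below was not tested. In bulk samples, fewer cells of a type and less RNA per cell cannot be told apart.

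Taken over both genotypes, the 10 genes had large counts in some libraries and almost none in others. Together they held 22515 and 257434 counts in WT 1 and WT 2, which is 0.112% (95% exact Clopper-Pearson interval 0.110 to 0.113) and 0.744% (0.741 to 0.747) of the total. In KO 1, KO 2 and KO 3 they held 163058, 102748 and 235658 counts, or 0.669% (0.666 to 0.672), 0.287% (0.285 to 0.289) and 0.465% (0.463 to 0.467). The lowest and the highest share were thus both in WT libraries, and the 3 KO libraries lay between them. At least 100 counts were reached by 3 and 9 of the 10 genes in the WT libraries and by 5, 8 and 9 in the KO libraries. For comparison, 20.2% and 48.4% of the 7905 genes tested reached 100 counts in the WT libraries, and 9.83%, 36.7% and 46.7% in the KO libraries. The 10 include *Tmx2* (722 counts in WT 1) and *Fkbp2* (58914 counts in KO 1), which were chosen by their counts. The comparison thus depends in part on that choice. *Hspa5* was the sole gene of the 10 with at least 100 counts in all 5 libraries, and 7 of the 10 were at 3 counts or fewer in at least 1 library.

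**Figure D2:**
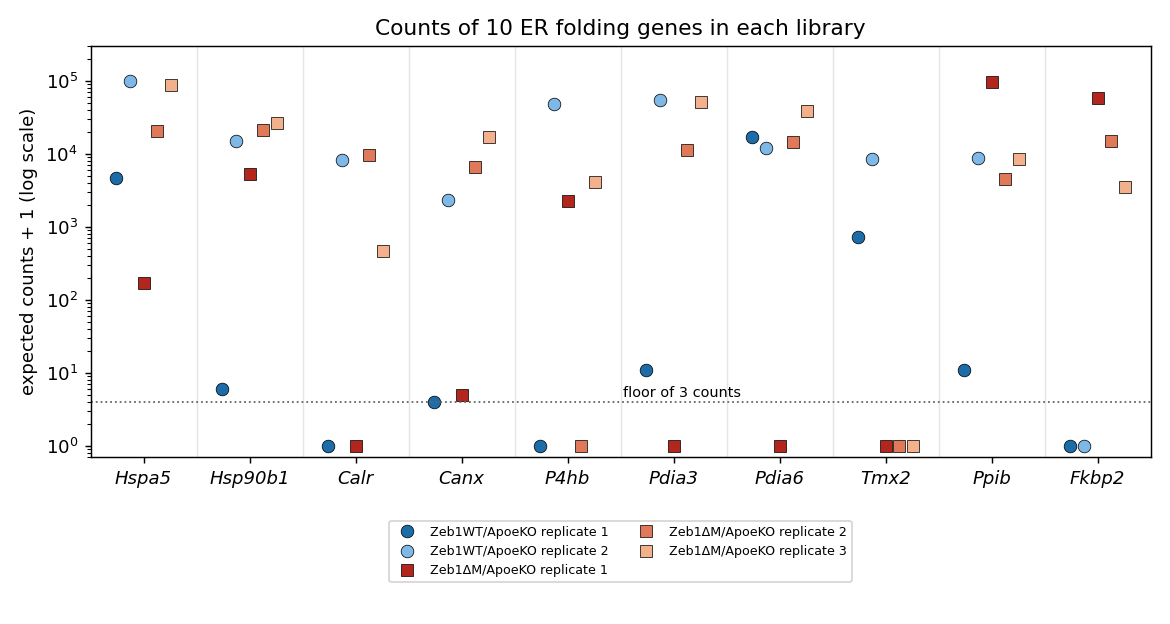
Deposited counts of the 10 ER folding genes in each library. The y axis is the expected count plus 1 on a log scale, circles are the 2 WT libraries, squares the 3 KO libraries, and the dotted line marks the floor of 3 counts. *Fkbp2* is at the bottom in both WT libraries and *Tmx2* in all 3 KO libraries, while the other 8 genes overlap between genotypes.

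Between genotypes, the quasi-likelihood test of edgeR, adjusted over 7905 genes by Benjamini and Hochberg's method, called 0 genes (0%), and so 0 of the 8 genes that can be read from it. At an unadjusted p under 0.05 there were 86 genes (1.09%), and 0 of the 8 genes not chosen by their split. DESeq2 called 790 of 6519 genes (12.1%) and limma-voom 234, and neither called any of these 8 (0 genes), although DESeq2 gave no adjusted p to *Calr* and *Ppib*. After TMM normalization, CPM did not overlap between the genotypes for 887 genes (11.2%), 528 higher (6.68%) and 359 lower (4.54%) in KO libraries. Among the 10 genes, this held for *Fkbp2* and *Tmx2*, which their choice fixes, and for 0 of the other 8. The median log2 fold change, KO over WT, was −0.50 over the 10 genes, of which 4 were above 0, and 0.78 over all genes tested. The libraries of a genotype differed among themselves by a median pooled SD of 5.15 on the log2 CPM scale for the 10 genes and of 3.63 for all genes tested. The medians over the 10 genes include *Tmx2* (SD 1.32) and *Fkbp2* (SD 2.52), chosen by their split. The SDs of the other 8 lay between 3.37 (*Hspa5*) and 7.90 (*P4hb*).

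*Hspa5* (ENSMUSG00000026864.13, chromosome 2 from 34771970 to 34777547, plus strand, GRCm38) encodes BiP, the central HSP70 chaperone of the ER. It had 4719 and 99592 counts in WT 1 and WT 2 and 170, 20212 and 86492 counts in KO 1, KO 2 and KO 3. Within each genotype it was lowest in the replicate 1 library, and the genotypes overlapped. After normalization it had 1530 ± 1923 CPM (SD, n = 2) in WT and 736 ± 884 CPM (SD, n = 3) in KO libraries, and the fitted log2 change (KO over WT) was −1.06 (SE 2.73, edgeR adjusted p = 1).

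*Hsp90b1* (ENSMUSG00000020048.13, chromosome 10 from 86690209 to 86705509, minus strand) encodes GRP94, the HSP90 chaperone of the ER, whose clients include integrins and Toll-like receptors. It had 5 and 14983 counts in the WT libraries and 5204, 21116 and 26154 counts in the KO libraries. The KO libraries lay close together at 429, 494 and 521 CPM, and WT 2, at 435 CPM, fell among them, whereas WT 1 had 0.181 CPM. The fitted log2 change was 1.15 (SE 3.62, edgeR adjusted p = 1), and 0.15 without WT 1 and 11.21 without WT 2. Beside these, the median over all genes tested was 0.78 with all libraries, 6.42 without WT 1 (13364 genes tested) and 6.32 without WT 2 (13326 genes tested). With RLE in place of TMM factors, WT 2 had 257 CPM and the KO libraries 1037, 338 and 350 CPM, so that on that scale the genotypes did not overlap. Of its exons, 415 bases are shared with *1810014B01Rik* on the opposite strand, which had at most 38 counts, and 133 bases with the miRNA gene *Gm25745* on the same strand, which had 0 counts in both WT libraries and 86, 14 and 8 in the KO libraries.

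*Calr* (ENSMUSG00000003814.8, chromosome 8 from 84841850 to 84846934, minus strand) and *Canx* (ENSMUSG00000020368.15, chromosome 11 from 50293961 to 50325673, minus strand) encode calreticulin and calnexin, the soluble and the membrane-bound lectin chaperone. *Calr* had 0 and 8184 counts in the WT libraries and 0, 9618 and 462 counts in the KO libraries. *Canx* had 3 and 2304 counts in the WT libraries and 4, 6612 and 17198 counts in the KO libraries. Both genes were at or near the floor in WT 1 and KO 1 and well above it in WT 2, KO 2 and KO 3, so that for each of them the genotypes overlapped. The fitted log2 change was −0.61 for *Calr* (SE 4.62) and 2.31 for *Canx* (SE 4.95), with an edgeR adjusted p of 1 in both cases. For *Canx* it was 10.55 without WT 2 and between 1.20 and 2.84 without any one of the other libraries. A processed pseudogene of calreticulin, *Calr-ps*, had 0 counts in every library.

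*P4hb* (ENSMUSG00000025130.11, chromosome 11 from 120560298 to 120573253, minus strand) encodes protein disulfide isomerase, which is also the beta subunit of prolyl 4-hydroxylase. It had 0 and 48607 counts in the WT libraries and 2264, 0 and 4085 counts in the KO libraries. Unlike *Calr* and *Canx*, which had 0 and 4 counts in KO 1, it had 2264 counts there and was at 0 in KO 2. The genotypes overlapped, and the fitted log2 change was −2.98 (SE 3.63, edgeR adjusted p = 1).

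*Pdia3* (ENSMUSG00000027248.13, chromosome 2 from 121413775 to 121438687, plus strand) encodes ERp57, the disulfide isomerase that works with calnexin and calreticulin and sits in the MHC class I loading complex. It had 10 and 54558 counts in the WT libraries and 0, 11297 and 51048 counts in the KO libraries. Like the lectin chaperones, it was near or at 0 in WT 1 and KO 1. The fitted log2 change was −0.89 (SE 3.14, edgeR adjusted p = 1), and the genotypes overlapped.

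*Pdia6* (ENSMUSG00000020571.13, chromosome 12 from 17266545 to 17284770, plus strand) encodes P5, a disulfide isomerase that associates with BiP. It had 17046 and 12142 counts in the WT libraries and 0, 14504 and 38211 counts in the KO libraries. WT 1, which was low for most of the 10 genes, was high here, and KO 1 was at 0. The genotypes overlapped, at 485 ± 187 CPM (SD, n = 2) in WT and 367 ± 381 CPM (SD, n = 3) in KO libraries, and the fitted log2 change was −0.40 (SE 3.38, edgeR adjusted p = 1).

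*Tmx2* (ENSMUSG00000050043.16, chromosome 2 from 84671316 to 84679140, minus strand) encodes a thioredoxin-related transmembrane protein of the disulfide isomerase family. It had 722 and 8418 counts in WT 1 and WT 2 and 0 counts in KO 1, KO 2 and KO 3. The WT libraries averaged 135 ± 154 CPM (SD, n = 2), at least 1075-fold above the mean of the floors of 3 counts in the KO libraries, 0.126 CPM. The lower of the WT libraries, at 26.1 CPM, was at least 106-fold above the highest of these floors, 0.248 CPM in KO 1, and 90.3% of the WT sum came from WT 2. *Tmx2* shares 252 exon bases with *Gm28635* on the same strand, which had 0 counts in every library, and 19 exon bases with *Med19* on the opposite strand. *Med19* had 0 and 3232 counts in the WT libraries and 0 in all 3 KO libraries. The kit does not mark strand, so reads on the shared bases cannot be told apart.

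*Ppib* (ENSMUSG00000032383.7, chromosome 9 from 66060222 to 66066623, plus strand) encodes cyclophilin B, the cyclophilin of the ER, which takes part in collagen folding. It had 10 and 8646 counts in the WT libraries and 96502, 4521 and 8475 counts in the KO libraries. KO 1 stood far above the rest and held 96.7% of the KO sum of CPM, while WT 1 was at 10 counts, and WT 2 lay above KO 2 and KO 3. The WT libraries averaged 126 ± 177 CPM (SD, n = 2) and the KO libraries 2746 ± 4518 CPM (SD, n = 3), and the fitted log2 change was 4.45 (SE 3.03, edgeR adjusted p = 1). It was 0.07 without KO 1, where the median of all genes tested was 0.14, and 12.28 without WT 2. *Ppib* shares 825 exon bases with *Snx22* on the opposite strand, which had 0 and 5 counts in the WT libraries and 137, 6 and 6 counts in the KO libraries.

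*Fkbp2* (ENSMUSG00000056629.16, chromosome 19 from 6977741 to 6980501, minus strand) encodes FKBP13, a small FK506-binding prolyl isomerase of the ER lumen. It had 0 counts in WT 1 and WT 2 and 58914, 14868 and 3533 counts in KO 1, KO 2 and KO 3. The KO libraries averaged 1760 ± 2690 CPM (SD, n = 3), at least 17987-fold above the mean of the floors in the WT libraries, 0.0978 CPM. The KO libraries differed widely, with 4861, 348 and 70.3 CPM, so that 92.1% of the KO sum of CPM came from KO 1. KO 3, the lowest of them, was at least 647-fold above the higher WT floor of 0.109 CPM. No other gene shares exon bases with *Fkbp2* in the annotation. Both prolyl isomerases of the 10 genes thus had their highest count in KO 1, a library in which *Calr*, *Canx*, *Pdia3*, *Pdia6* and *Tmx2* had 0 to 4 counts.

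Permuting the genotype over the 10 possible assignments of the libraries (exact permutation test, two-sided, smallest possible p 0.1) gave p between 0.2 (*Hsp90b1*) and 1 (*Calr*, *P4hb* and *Pdia3*) for the 8 genes not chosen by their split. For 6 of the 10 genes, the difference in mean log2 CPM (KO minus WT) was smaller than the pooled SD within genotypes. These were *Hspa5* (difference −1.64, SD 3.37), *Calr* (0.41, SD 6.91), *Canx* (3.03, SD 5.61), *P4hb* (0.08, SD 7.90), *Pdia3* (−0.03, SD 7.88) and *Pdia6* (−4.23, SD 6.18). For *Hsp90b1* (5.55, SD 4.42) and *Ppib* (5.66, SD 4.69) the difference was slightly larger than the SD. *Calr* and *P4hb* had opposite signs in this difference and in the fitted log2 fold change. The direction also turned without WT 2 for *Hspa5* (log2 fold change 2.13), *Calr* (14.40), *P4hb* (14.20) and *Pdia3* (10.22), and without WT 1 for *Pdia6* (0.18), so no direction is given for these 5 genes. Without WT 2, *Hspa5* lay below and the other 3 above the median of 6.32 over all genes tested, and without WT 1 *Pdia6* lay below the median of 6.42.

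**Figure D3:**
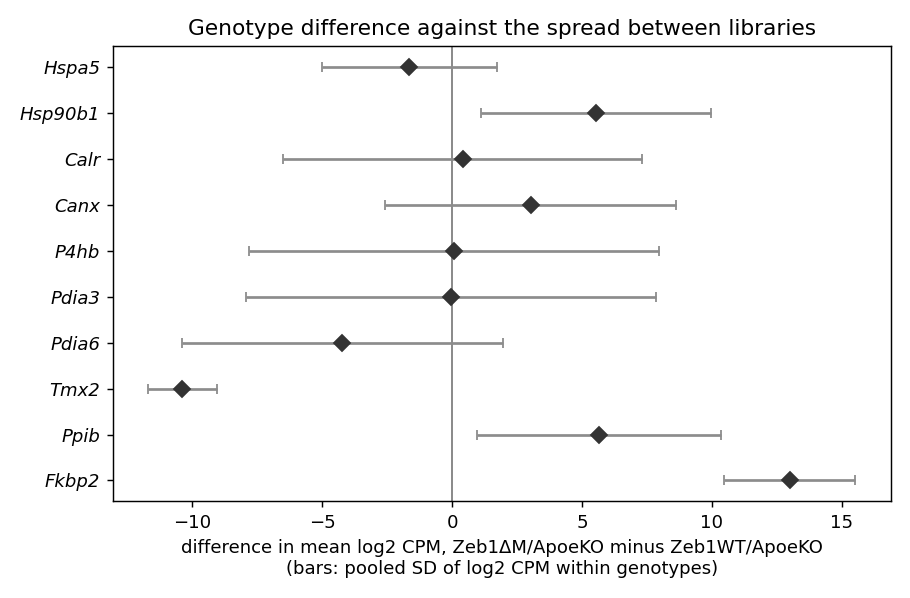
Difference in mean log2 CPM between genotypes for each of the 10 ER folding genes. The x axis is the mean of the 3 KO libraries minus that of the 2 WT libraries, diamonds are the differences and bars reach 1 pooled SD within genotypes to each side. The bars of *Hspa5*, *Calr*, *Canx*, *P4hb*, *Pdia3* and *Pdia6* cross 0, and *Tmx2* (−10.39, SD 1.32) and *Fkbp2* (13.01, SD 2.52), chosen for their split, lie farthest from it.

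Levels were also set against each other within a library, as normalized CPM per kilobase of all annotated exons, values that have no replicate error within a library. In WT 1, *Pdia6* was at 165, *Hspa5* at 40.4 and *Tmx2* at 11.2, with the other 7 genes at 0.115 or less. In WT 2, *Hspa5* (683), *Pdia3* (504) and *P4hb* (493) were the 3 highest, and lower values were those of *Hsp90b1* (108), *Tmx2* (105), *Pdia6* (94.1), *Calr* (82.5), *Ppib* (75.9) and *Canx* (14.2). The leading genes thus differed between the WT libraries.

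In KO 1, *Fkbp2* at 2964 and *Ppib* at 2409 CPM per kilobase were far above *Hsp90b1* at 107, *P4hb* at 65.3 and *Hspa5* at 3.32. In KO 2, *Fkbp2* was at 212, *Hsp90b1* at 122, *Hspa5* at 112, *Pdia6* at 90.6, *Pdia3* at 84.1 and *Calr* at 78.1. In KO 3, *Hspa5* (407) and *Pdia3* (324) were highest, as they were in WT 2, and *Pdia6* (203) came next, with lower values for *Hsp90b1* (129), *Canx* (72.9), *Ppib* (51.0) and *Fkbp2* (42.9). The values depend on the length used, since *Ppib* and *Fkbp2* have principal transcripts of 892 and 642 bases but 3305 and 1640 bases of annotated exons. Per kilobase of the principal transcript, an alternative chosen after seeing the data, *Ppib* (8927) was above *Fkbp2* (7572) in KO 1. *Ppib* also moved from rank 8 to 4 in WT 2 (281), from 8 to 5 in KO 2 (119) and from 6 to 4 in KO 3 (189), *Tmx2* from 5 to 7 in WT 2, and *Hspa5* and *Pdia6* changed places in KO 2. The 3 highest genes of WT 1, WT 2 and KO 3 and the 2 highest of KO 2 kept their places with both lengths, and the order of some other neighbours depends on the length. The gene with the largest share of the counts of the 10 genes, which are not scaled by length, was *Pdia6* in WT 1 (75.7%), *Hspa5* in WT 2 (38.7%) and KO 3 (36.7%), *Ppib* in KO 1 (59.2%) and *Hsp90b1* in KO 2 (20.6%).

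By role, the sums over the genes of a class moved differently between libraries. The prolyl isomerases *Ppib* and *Fkbp2* summed to 0.497 and 250 CPM of the total in the WT libraries and to 6377, 542 and 237 CPM in the KO libraries. The disulfide isomerase family summed to 884 and 3576 CPM against 92.9, 721 and 1843 CPM, with KO 1 lowest. The ATP-driven chaperones *Hspa5* and *Hsp90b1* summed to 235 and 3312 CPM against 220, 1155 and 2224 CPM. The lectin chaperones summed to 0.149 and 303 CPM against 0.164, 454 and 349 CPM. In each class, the range of the KO libraries overlapped that of the WT libraries.

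A further 104 genes of ER folding and related pathways were read in 5 lists, of which 80 passed the filter on low counts. None of the 80 was called by edgeR (0 genes), 1 had an unadjusted p under 0.05, and DESeq2 called 4 of the 56 to which it gave an adjusted p (7.14%, against 12.1% of all genes it tested). The CPM did not overlap between genotypes for 12 of the 80 (15.0%, against 11.2% of all genes tested), 6 higher and 6 lower in KO libraries. At least 100 counts were reached by 21 and 61 of the 104 genes in WT 1 and WT 2 and by 4, 37 and 59 in KO 1, KO 2 and KO 3. KO 1 was thus the library with the fewest of these genes, as it was for all genes tested.

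**Figure D4:**
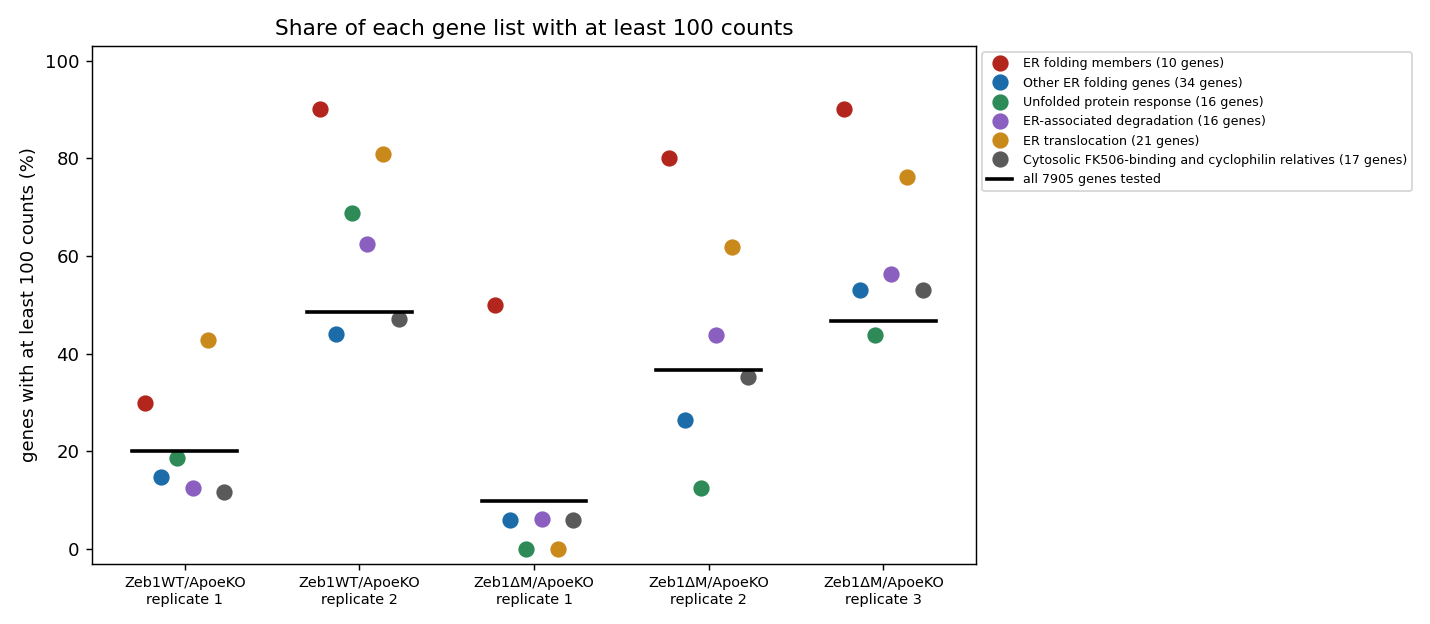
Share of each gene list with at least 100 counts in each library. The y axis is the percentage of the genes of a list, points are the 10 ER folding genes and the 5 related lists, and black bars are all 7905 genes tested. KO 1 is lowest for the 5 related lists and WT 1 for the 10 genes, which lie above the black bar in all 5 libraries. The 10 include *Fkbp2* and *Tmx2*, chosen by their counts, so their place against the bar depends in part on that choice.

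Of 34 other ER folding genes, 22 were tested, 0 were called and 6 did not overlap, beside 11.2% of all genes tested. Whether this or any other of the short lists departs from that share was not tested. Those with higher CPM in every KO library were *Erp29*, a disulfide isomerase relative without redox activity (14 and 9 counts in WT, 8328, 8839 and 15619 in KO libraries), *Sil1*, the nucleotide exchange factor of BiP (0 and 0, then 5, 93 and 399), and *Ganab*, the catalytic subunit of glucosidase II. *Ganab* rested on KO 1 and KO 3, as its counts were 1 and 0 in WT and 2197, 2 and 5060 in KO libraries. Those with lower CPM in every KO library were *Dnajb11*, a BiP co-chaperone (1075 and 131 CPM in WT, 6.27, 14.2 and 113 CPM in KO libraries, while its counts of 29684 and 4519 against 76, 609 and 5682 overlapped), *Manf*, a secreted protein of the ER stress response (31180 and 8601 counts, then 12, 4879 and 5778), and *Uggt1*, the glycoprotein folding sensor (7431 and 124, then 23, 0 and 0). *Creld2*, another gene induced by ER stress, overlapped with 0 and 10662 counts in WT and 0, 17957 and 14917 counts in KO libraries. The fitted log2 change of *Erp29* was 10.02 (SE 6.16, edgeR adjusted p = 1), and DESeq2 called it and *Ganab*.

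Of 16 genes of the unfolded protein response, 15 were tested, 0 were called and, beside 11.2% of all genes tested, 1 did not overlap. This was *Ddit3*, which encodes the stress transcription factor CHOP, with 13 and 971 counts in WT and 0, 0 and 2 counts in KO libraries. The most abundant were *Ppp1r15a*, which encodes the phosphatase subunit GADD34 (59 and 62381 counts in WT, 39, 17591 and 13891 in KO libraries), *Xbp1*, a transcription factor of the response (0 and 31064, then 16, 28209 and 29256), and *Herpud1*, which acts in degradation at the ER membrane (546 and 15843, then 0, 51 and 22469). *Ppp1r15a* and *Xbp1* were low in WT 1 and KO 1, as were *Calr*, *Canx* and *Pdia3*, whereas *Herpud1* was low in KO 1 and KO 2, and for all 3 genes the genotypes overlapped.

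Of 16 genes of ER-associated degradation, 12 were tested, 0 were called by edgeR and 0 of the 12 did not overlap, beside 11.2% of all genes tested. *Syvn1*, which encodes the ligase HRD1, did not pass the filter, and its 4 and 4630 counts in WT against 0, 0 and 0 in KO libraries did not overlap. It was the gene of this list that DESeq2 called. *Derl1*, a channel component, had 5 and 8775 counts in WT and 12, 331 and 19571 counts in KO libraries. *Sel1l*, the partner of the ligase HRD1, had 7327 and 0 against 13, 12936 and 7770, and *Os9*, a lectin of the same complex, 109 and 11023 against 8, 8389 and 8094. Each of the 3 was near 0 in KO 1, and its genotypes overlapped.

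Of 21 genes of translocation into the ER, 18 were tested, 0 were called and, beside 11.2% of all genes tested, 2 did not overlap. Both encode subunits of the signal peptidase, *Spcs3* (6 and 4203 counts in WT, 0, 0 and 0 in KO libraries) and *Sec11a* (16265 and 19213, then 3, 8203 and 0). DESeq2 called 1 gene of this list, *Spcs3*. Other subunits of the same enzyme overlapped, with 2 and 42980 counts in WT and 1, 17111 and 21513 in KO libraries for *Spcs2*, and 757 and 12471 against 24, 16237 and 28727 for *Sec11c*. *Ssr2*, a subunit of the translocon-associated complex, had 0 and 7566 against 6, 12396 and 37232.

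Of 17 FK506-binding and cyclophilin relatives that work outside the ER lumen, 13 were tested, 0 were called and 3 did not overlap, all higher in KO libraries. Of all genes tested, 11.2% did not overlap, 6.68% higher and 4.54% lower in KO libraries. *Ppia*, cyclophilin A of the cytosol, was the sole gene of the list with large counts in every library. It had 52499 and 68249 counts in WT and 110943, 116171 and 143155 counts in KO libraries. After normalization these were 1901 and 1980 CPM against 9155, 2716 and 2849 CPM, with KO 1 highest. Its fitted log2 change was 1.34 (SE 2.13, edgeR adjusted p = 1), beside a median of 0.78 over all genes tested. *Fkbp8*, a membrane-anchored relative, had 0 and 2 counts against 19, 786 and 338, and *Fkbp15* had 4 and 0 against 31, 935 and 3302. *Fkbp1a*, the cytosolic FKBP12, overlapped with 10 and 22977 against 17, 12401 and 19957 counts, as did *Ppil2* with 1 and 14617 against 0, 5859 and 0.

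The genes whose pattern over the 5 libraries lay nearest to *Fkbp2* and *Tmx2* were found by the mean absolute difference in log2 CPM among all genes tested. For *Fkbp2* these were *Trappc3* (0.74), *Aldh3b1* (0.74) and *Rnase4* (1.19). The study names these 3 genes as increased in Zeb1ΔM/ApoeKO macrophages, among its most differentially expressed genes from the same libraries. *Trappc3* had 0 counts in both WT libraries and 8493, 10780 and 4818 in the KO libraries, *Aldh3b1* 0 and 0 against 36834, 15008 and 434, and *Rnase4* 0 and 3 against 114295, 8569 and 26473. *Aldh3b1* and *Rnase4*, like *Fkbp2*, had their highest count in KO 1. For *Tmx2* the nearest were *Fam199x* (0.39), *Dhrs1* (0.49) and *Pot1a* (0.57), with 645 and 5737, 2470 and 5227, and 1082 and 16949 counts in WT 1 and WT 2 and at most 1 count in any KO library. None of these 6 genes belongs to the ER folding lists. Genes nearest to a gene picked for its split tend to split by construction, so their likeness is a description only.

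**Figure D5:**
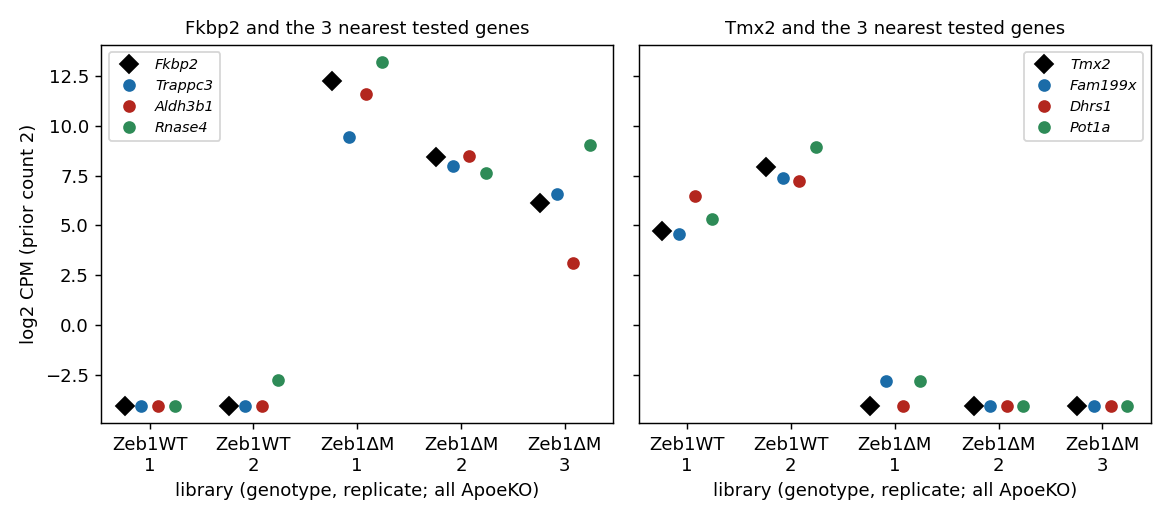
Log2 CPM of *Fkbp2* and *Tmx2* and of the 3 tested genes nearest to each. The y axis is log2 CPM with a prior count of 2, the x axis the 5 libraries, black diamonds *Fkbp2* (left panel) and *Tmx2* (right panel), and coloured circles the nearest genes. In the left panel the WT libraries lie at the bottom and KO 1 highest for all 4 genes, and in the right panel the 3 KO libraries lie at the bottom and WT 2 above WT 1.

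The ER stress response element was read against the counts as well. Of the 37 genes that hold it, 33 were in the table, and 28 were not among the 10. Of these 28, 7 had at least 100 counts in some library, with 1 and 5 in WT 1 and WT 2 and 0, 2 and 4 in KO 1, KO 2 and KO 3. The related lists hold 3 of them, *Creld2*, *Dnajc3* and *Syvn1*. *Dnajc3*, a BiP co-chaperone, had 0 and 11349 counts in WT and 13, 1355 and 2 counts in KO libraries, and the counts of *Creld2* and *Syvn1* are given above. Among the 5 genes of the 10 that hold the element, *Calr* and *Canx* had 0 to 4 counts in both WT 1 and KO 1. *Hsp90b1* had 5 counts in WT 1 and 5204 in KO 1, and *Pdia6* had 17046 and 0. *Hspa5* had 4719 counts in WT 1 and 170 in KO 1. These 5 genes thus were not near 0 in the same libraries.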

How the data were processed

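RNA of aortic macrophages was measured in 5 libraries, grouped by their labels. The authors mapped reads to GRCm38 with STAR 2.5.3a (versions from the submitters' processing notes), quantified genes with RSEM 1.3.0 and deposited expected counts as whole numbers, unnormalized. Reads were not analysed here.

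Counts were tested with edgeR 4.0.16 (R 4.3.3) between genotypes without covariates: filterByExpr with a minimum count of 10 (7905 of 55487 genes), TMM, the quasi-likelihood test and Benjamini-Hochberg adjustment over all genes tested (threshold 0.05). CPM are TMM-normalized unless called CPM of the total, as are sums over markers and roles, and log2 CPM used a prior count of 2. The SE of a fitted log2 change was back-calculated as the absolute change divided by the square root of the F statistic of the quasi-likelihood test. A fold against a genotype at 0 used a floor of 3 counts per library and is a lower bound. Scripts were tested on simulated data.

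The named genes are the 10 genes, *Zeb1*, *Lyz2*, *Apoe*, overlapping genes, the 3 most counted and the non-overlapping genes of each related list, and the 3 genes nearest to *Fkbp2* and to *Tmx2*. *Dnajc3*, *Syvn1*, *Cd68*, *C1qa*, *C1qb*, *Itgam*, *Cd14*, *Mertk*, *Sdc1*, *Jchain*, *Derl3*, *Dcn* and *Col1a2* were named after their values were seen. The genes and lists were chosen with earlier results of these data known. Alternatives were DESeq2 1.42.0, limma-voom (limma 3.58.1) with quality weights, RLE and upper-quartile factors, other filters, the replicate block, a threshold of 0.1 and each library left out. Positions are from GENCODE M21 (GRCm38), which held 55141 of the identifiers, and promoters from RefSeq, where all 10 genes matched. The annotation the authors name, GENCODE mouse version 25, was not used here. Figures used matplotlib 3.10.9.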

Additional observations from a re-analysis of the deposited data

How the results depend on the processing

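Precision is limited by 2 and 3 libraries with a common dispersion of 6.44. The count of genes called moved from 0 to 790 with DESeq2 and 234 with limma-voom, and that of the 10 ER folding genes from 0 to 1 (*Tmx2*) and 2 (*Fkbp2* and *Tmx2*), which restates how this pair was chosen. DESeq2 gave no adjusted p to 3 of the 10. In the related lists, DESeq2 called 2 other ER folding genes, 1 of degradation and 1 of translocation, and limma-voom 1 of translocation. The median log2 fold change of all genes tested was 0.78 with TMM, 1.24 with RLE, 0.29 with upper-quartile factors, −0.30 with limma-voom and 3.56 with DESeq2, and 0.14 (without KO 1) to 6.42 (without WT 1) with 1 library left out, over all genes to which each fit gave a fold change. Left out in turn, the libraries gave log2 changes of −2.65 to 2.13 for *Hspa5*, −4.59 to 14.40 for *Calr*, −4.18 to 14.20 for *P4hb*, −2.59 to 10.22 for *Pdia3*, −1.53 to 0.18 for *Pdia6*, 0.15 to 11.21 for *Hsp90b1*, 1.20 to 10.55 for *Canx* and 0.07 to 12.28 for *Ppib*, with reversals of *Hspa5*, *Calr*, *P4hb* and *Pdia3* without WT 2 and of *Pdia6* without WT 1. Directions also reversed with limma-voom for *Hspa5* (0.084), *Calr* (3.42) and *Pdia3* (3.56), with upper-quartile factors for *Calr* (0.49) and *P4hb* (1.65). The cause was not tested. With 1 library left out, genes without overlap numbered 2 to 6 of the 10 (20.5% to 39.4% of all genes tested), 7 to 12 other ER folding genes, 1 to 12 of the unfolded protein response (3 with CPM of the total or counts as deposited), 0 to 7 of degradation, 5 to 11 of translocation and 3 to 8 FK506-binding and cyclophilin relatives. Fewer libraries overlap less often by construction. With 1 WT library, it was assumed to vary like the KO libraries. A minimum of 10 counts in every library kept 2 of the 10. The replicate block, whose numbers 1 and 2 occur in both genotypes (correlation of deviations 0.18), called 0 genes (unadjusted, 7). The labels give these numbers no shared batch. Per kilobase in KO 1, *Fkbp2* over *Ppib* was 1.23 with all exons and 0.848 with principal transcripts.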
